A study of Mus musculus with 24 samples.

Results

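Interferon-stimulated genes are the genes that a cell transcribes when an interferon binds its receptors. The set described here has 43 genes in 9 functional groups, and 38 of them were measured, out of 19938 genes in the whole table. A gene counted as measured where at least 1 probe set is annotated with its symbol alone, and where there were several, the brightest on average over the 24 arrays stood for it. Isg15, Gbp2, Igtp and Ifi47 have rows that list several genes, and Ifi44 has no row of its own, so these 5 genes were not used here. Irf1 has 2 such rows and every other measured gene has 1.

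Interferons signal through JAK kinases that phosphorylate STAT proteins. Type I interferons act through a complex that holds STAT2 and IRF9 and binds the interferon-stimulated response element, a DNA element built from repeats of GAAA. Interferon-γ acts through the palindromic gamma-activated site and induces Irf1 among other genes. The products sense viral RNA, block translation, modify other proteins with the ubiquitin-like protein ISG15, restrict intracellular pathogens and feed peptides to MHC class I molecules. Muscle cells are not immune cells, but they carry interferon receptors and can switch on this programme.

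RNA came from 2 immortalised mouse muscle cell lines, 1 wild-type H-2Kb-tsA58 line and 1 MuSK-/- line. The 8 groups were BMP4-treated and untreated MuSK-null myotubes, BMP4-treated and untreated wild-type myotubes, BMP4-treated and untreated MuSK-null myoblasts, and BMP4-treated and untreated wild-type myoblasts. Each group had 3 arrays, called biological replicates in the labels. The sources used here do not say whether they were separate passages, and the p-values then cover only the spread among these arrays. MuSK organises the neuromuscular synapse as a receptor kinase of the muscle surface, and the design asks whether it shapes the response to bone morphogenetic protein 4 (BMP4). Treated cells received 25 ng/ml BMP4 for 8 h.

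The culture conditions touch the interferon programme directly. The H-2Kb-tsA58 transgene puts a temperature-sensitive large T antigen under an MHC class I promoter that interferon induces. Per the labels, myoblasts of both lines grew at 33 °C in 20% fetal bovine serum with 1 U of interferon-γ, the volume being unstated. Myotubes were kept for 3 days at 37 °C in 5% horse serum, in a medium for which no interferon-γ is listed. A difference between stages therefore cannot be told apart from the change of temperature, serum and interferon-γ. Treated myoblasts were serum deprived for 4 h before BMP4, which the labels state for no untreated myoblast. Because each genotype is 1 line, a genotype difference cannot be told apart from a difference between lines. In bulk RNA, fewer cells of a type and less RNA per cell cannot be told apart.

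Values are log2 signals, and array medians over all rows lay between 7.38 and 7.50. Musk, the deleted gene, had signals of 11.17, 11.24 and 11.24 in untreated MuSK-null myotubes, against 12.72, 12.69 and 12.76 in untreated wild-type myotubes. BMP4-treated myotubes had 11.30 to 11.32 in MuSK-null cells and 12.78 to 12.84 in wild-type cells. In myoblasts the signals were 10.69 to 11.16 in MuSK-null and 11.50 to 12.19 in wild-type cells. The groups did not overlap, but signal remained in MuSK-null cells, and the sources used here do not name the deleted exons, which means that the row checks the labels only in part. All 10 muscle markers lay above the 20th percentile of gene means (6.03) in every group.

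The promoters of several members carry the elements named above. RefSeq (GRCm38.p6) gives windows running from 250 bases before to 50 bases after an annotated start, and 28 of the 38 measured members have one. Dhx58, Ifi27, Mx2, Oas2, Parp14, Parp9, Rtp4, Tap2, Usp18 and Zbp1 have no entry. The core of the interferon-stimulated response element, written as GAAA, any 2 bases and GAAA again, was searched on both strands. It occurred in windows of 11 of the 28 genes, which is 32.4% of the members' 34 windows, against 3.44% of all 32851 windows. The letters TTCNNNGAA, the core of the gamma-activated site and its own reverse complement, occurred in 8 of the 28 genes, in 23.5% of their windows against 8.30% of all. A match describes letters in a window and does not show that a factor binds there.

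The stretches below are printed on the gene's own strand. They were picked from genes whose windows hold a match, so they do not show how often a large change goes with a match. Oasl2, Irf7, Samd9l, Xaf1 and Dtx3l have windows without a match to either element. In untreated wild-type cells these genes rose more from myoblasts to myotubes than Irgm1, Rsad2, Bst2 and Gbp7, which are printed. Positions count from the start that each window is built on, which for Ifit3 lies 410 bases inside the annotated span of the gene and for the others is the first base of that span on the gene's strand. Capitals mark the matches, and a match to the first element on the opposite strand reads as TTTC repeats.
Ifit1, chr19:34640759-34640838, plus strand, bases 130 to 51 before the start: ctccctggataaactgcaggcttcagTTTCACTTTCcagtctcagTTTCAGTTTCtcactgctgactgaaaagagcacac
Ifit3, chr19:34583363-34583392, plus strand, bases 166 to 137 before the start: cagtggtaagTTTCACTTTCctcttctggt
Ifit3, chr19:34583397-34583426, plus strand, bases 132 to 103 before the start: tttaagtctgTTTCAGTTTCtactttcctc
Irgm1, chr11:48871421-48871500, minus strand, bases 80 to 1 before the start: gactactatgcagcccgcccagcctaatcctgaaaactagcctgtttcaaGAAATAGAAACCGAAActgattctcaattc
Rsad2, chr12:26456533-26456612, minus strand, bases 160 to 81 before the start: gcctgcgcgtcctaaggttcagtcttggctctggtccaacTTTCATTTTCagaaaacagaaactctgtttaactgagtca
Bst2, chr8:71537553-71537632, minus strand, bases 160 to 81 before the start: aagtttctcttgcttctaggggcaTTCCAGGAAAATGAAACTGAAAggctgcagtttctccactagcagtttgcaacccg
Gbp7, chr3:142530216-142530295, plus strand, bases 120 to 41 before the start: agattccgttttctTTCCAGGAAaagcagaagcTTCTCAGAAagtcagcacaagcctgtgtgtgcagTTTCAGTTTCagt
Irf1, chr11:53769884-53769963, plus strand, bases 130 to 51 before the start: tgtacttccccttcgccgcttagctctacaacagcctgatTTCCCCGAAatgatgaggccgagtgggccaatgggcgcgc
Psmb8, chr17:34198065-34198144, plus strand, bases 130 to 51 before the start: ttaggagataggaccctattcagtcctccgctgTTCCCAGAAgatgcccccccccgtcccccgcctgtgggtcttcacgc

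Ifit1 and Ifit3 each hold 2 separate matches to the response element. In Irgm1 a pair of matches overlaps, and in Bst2 a further overlapping pair runs into a match to the gamma-activated site. Gbp7 holds both elements, apart from each other, while the Irf1 and Psmb8 stretches hold the gamma-activated site core alone.

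One pattern ran through most of the set: untreated wild-type myotubes stood above all other untreated cells. For 33 of the 38 members, each of the 3 untreated wild-type myotube arrays was above every array of the other 3 untreated groups, which held for 12.0% of all genes. The 5 others were Irf1, Adar, Oas3, Ifit2 and Tap2. For Ifit2 the wild-type myotube arrays were all the lowest, which held for 12.7% of all genes. Among BMP4-treated cells the wild-type myotubes were highest in 31 of 38 members, against 10.8% of genes, and lowest again in Ifit2, against 10.5%. The 7 members not highest there were the same 5 plus Stat2 and Eif2ak2.

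The mean signal over the 38 members ran from 7.84 to 7.89 in untreated MuSK-null myotubes and from 9.16 to 9.36 in untreated wild-type myotubes. In untreated myoblasts it ran from 7.77 to 7.79 in MuSK-null and from 7.99 to 8.06 in wild-type cells. With BMP4 it was 7.67 to 7.70 in MuSK-null myotubes and 8.93 to 9.09 in wild-type myotubes. The median over all genes lay between 7.84 and 7.93 on every array, in values whose scaling is not stated. Mx2 lay below the 20th percentile of gene means in every group but the wild-type myotubes, as Rsad2 and Cmpk2 did in several, so the size of their differences may be limited by background.

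**Figure D1:**
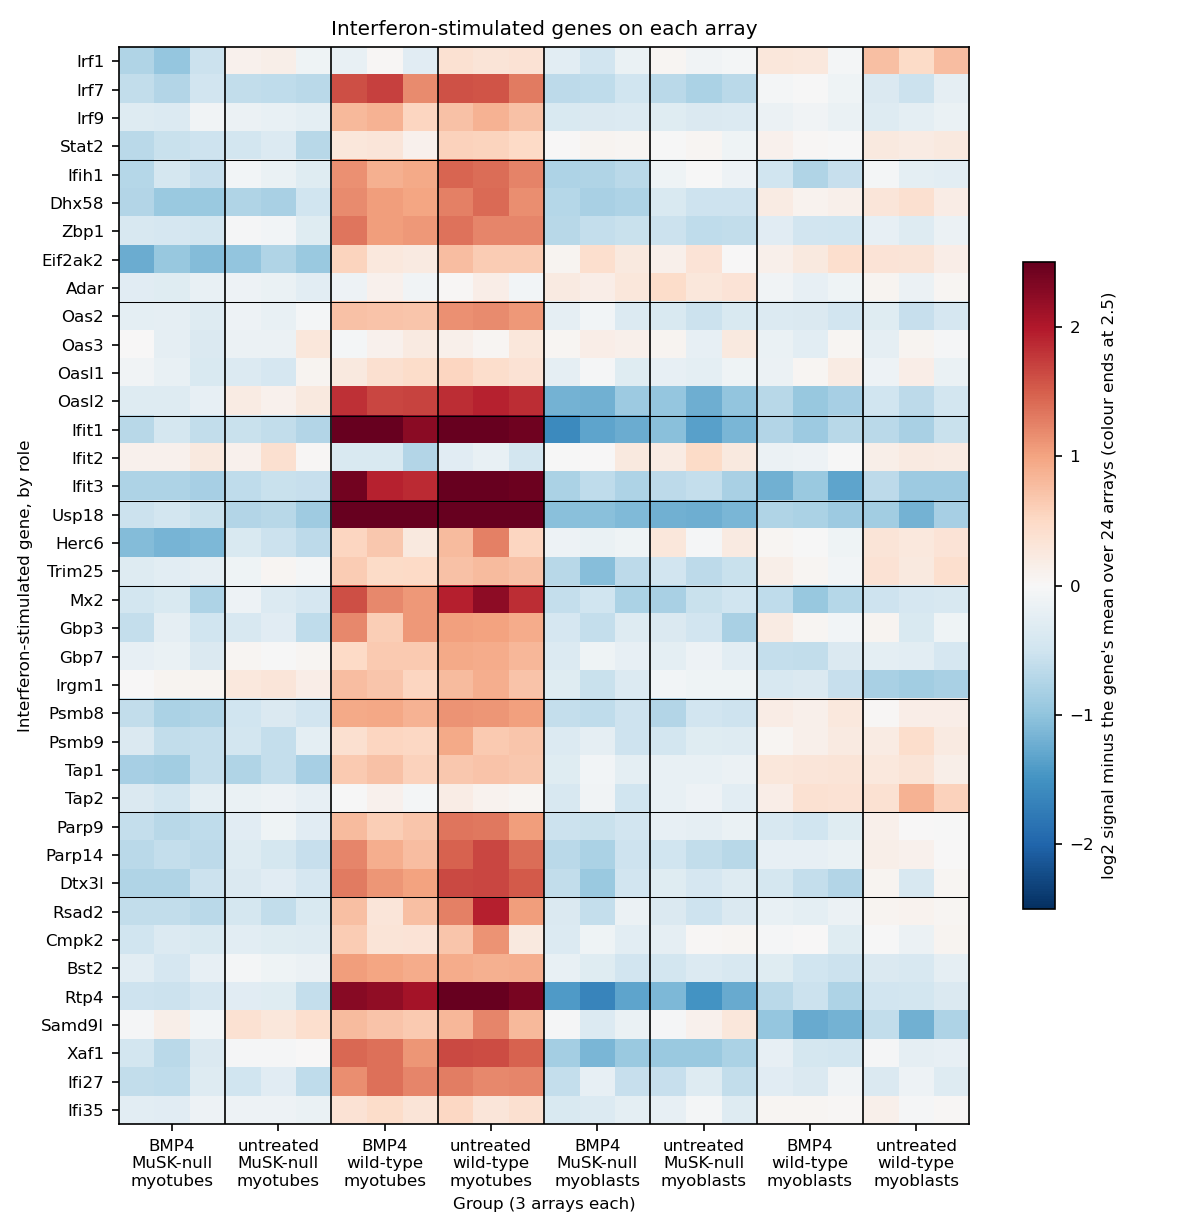
Heat map of the 38 measured interferon-stimulated genes (rows, grouped by role) on the 24 arrays (columns, 3 per group). Colour is the log2 signal minus the gene's mean over all arrays and ends at 2.5; both wild-type myotube groups are red for nearly all rows, and Ifit2 is blue there.

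Myotubes were compared with myoblasts within each line, both untreated. Differences were fitted with limma over all 19938 genes, and a gene was said to rise or fall where the Benjamini-Hochberg adjusted p was under 0.05. Changes are in log2 units with their standard error (SE), from 3 arrays per group.

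In untreated MuSK-null cells the stage change of the set was small. Of the 38 members 11 rose and 5 fell, against 18.2% of all genes higher and 23.4% lower, and the median change was 0.08, against -0.01 over all genes. Only Oasl2 rose at least 2-fold (3.73% of genes did), and only Eif2ak2 fell by as much (3.00% of genes). After Oasl2 the largest rises were those of Rtp4 (0.89), Xaf1 (0.87) and Ifit1 (0.55). Rtp4 had 7.74, 7.71 and 7.42 in MuSK-null myotubes, against 6.90, 6.53 and 6.77 in MuSK-null myoblasts, and Xaf1 had 8.30, 8.31 and 8.33 in MuSK-null myotubes, against 7.40, 7.41 and 7.53 in MuSK-null myoblasts. The groups did not overlap for either. Besides Eif2ak2, the falls were those of Herc6 (-0.68), Tap1 (-0.55), Adar (-0.54) and Stat2 (-0.47).

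In untreated wild-type cells the programme was higher in myotubes than in myoblasts. Of the 38 members 33 rose and 3 fell, against 20.3% of all genes higher and 24.7% lower in the same comparison, and 22 rose at least 2-fold, against 4.02% of genes. The median log2 change was 1.20 over the members and -0.05 over all genes. This comparison, the genotype difference in untreated myotubes and the genotype difference of stage changes all use the same 3 untreated wild-type myotube arrays, so their values are given side by side and are not independent.

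The enzymes that handle ISG15 were led by Usp18, the protease that strips ISG15 from its targets and dampens type I receptor signalling (chr6:121245906-121270917). In untreated MuSK-null cells its signals were 7.64, 7.68 and 7.49 in myotubes, against 7.17, 7.15 and 7.24 in myoblasts, a rise of 0.42 (adjusted p = 0.00016). They were 11.22, 11.18 and 10.99 in untreated wild-type myotubes, against 7.50, 7.21 and 7.55 in untreated wild-type myoblasts. The groups stood far apart, and the change of 3.71 (SE 0.08, adjusted p = 7.93e-20), or 13.1-fold, was larger than that of any other member. Herc6, the main ISG15 ligase of the mouse, fell by 0.68 on the log2 scale in MuSK-null cells and rose by 0.55 in wild-type cells. Trim25, a ubiquitin ligase that activates RNA sensing, rose in both lines, by 0.53 in MuSK-null cells and 0.41 in wild type.

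The Ifit genes encode proteins that bind foreign RNA and block its translation. Ifit2, Ifit3 and Ifit1 lie in this order on chromosome 19, with gaps of 6584 and 51906 bases. In MuSK-null cells Ifit1 rose by 0.55 (adjusted p = 0.00211), while Ifit3 changed by 0.09 and Ifit2 by -0.13 without passing the threshold. Ifit3 had 10.40, 10.77 and 10.18 in untreated wild-type myotubes, against 7.07, 6.83 and 6.82 in wild-type myoblasts, a change of 3.54 (SE 0.13, adjusted p = 5.48e-16). Ifit1 had 10.89, 11.24 and 10.54 in the myotubes, against 7.44, 7.31 and 7.55 in the myoblasts, a change of 3.46 (SE 0.14, adjusted p = 1.13e-15). Ifit2 went the other way, with 8.24, 8.34 and 8.06 in the myotubes, against 8.68, 8.74 and 8.72 in the myoblasts, a change of -0.50 (adjusted p = 0.000399). Genes of 1 cluster thus differed in direction in wild-type cells, with no overlap between the groups in any of the 3.

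Among the transcription factors, Irf7, which drives type I interferon genes, rose by 1.86 in wild-type myotubes, and Irf9, the DNA-binding part of the STAT complex, rose by 1.02. Stat2 had 8.99, 9.12 and 8.76 in MuSK-null myotubes, against 9.44, 9.51 and 9.34 in MuSK-null myoblasts, a change of -0.47 (adjusted p = 1.92e-05). It had 10.02, 10.01 and 9.94 in wild-type myotubes, against 9.69, 9.66 and 9.69 in wild-type myoblasts, a rise of 0.31 (adjusted p = 0.00176). Stat2 therefore passed the test in opposite directions in the lines. Irf1, the factor most directly induced by interferon-γ, had 9.28, 9.23 and 9.27 in wild-type myotubes, against 9.66, 9.39 and 9.67 in wild-type myoblasts. Its change of -0.31 (adjusted p = 0.0287) lost its call in 7 of 17 alternatives, where the adjusted p ran from 0.00148 to 0.111. The second Irf1 row, not used in the test, lay between 7.40 and 7.84 on all arrays.

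RNA sensors and RNA-activated enzymes rose in 4 of 5 cases in wild-type myotubes. Ifih1, a sensor of long double-stranded RNA, rose by 1.55, Zbp1, a sensor of Z-form nucleic acid, by 1.49, and Dhx58, a regulator of RNA sensing, by 0.98. Eif2ak2, the kinase that shuts down translation on binding double-stranded RNA, had 8.14, 8.36 and 8.19 in MuSK-null myotubes, against 9.25, 9.47 and 9.12 in MuSK-null myoblasts. It had 9.90, 9.76 and 9.76 in wild-type myotubes, against 9.46, 9.44 and 9.30 in wild-type myoblasts. It fell by 1.05 on the log2 scale in MuSK-null cells (adjusted p = 2.56e-08), whose myotubes were its lowest untreated group, and rose by 0.41 in wild type. Adar, which edits adenosine to inosine in double-stranded RNA, changed by -0.54 in MuSK-null cells (adjusted p = 2.69e-06) and by 0.06 in wild type (adjusted p = 0.604).

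Of the oligoadenylate synthetase family, several of whose products lead to activation of RNase L, Oasl2, Oas2 and Oasl1 rose in wild-type myotubes by 2.40, 1.57 and 0.48. Oas3 changed by 0.22 with overlapping groups. Oasl2 was also the largest rise in MuSK-null cells, with 8.85, 8.75 and 8.88 in myotubes, against 7.68, 7.43 and 7.65 in myoblasts, a change of 1.24 (SE 0.09, adjusted p = 2.87e-11). It had 10.49, 10.56 and 10.50 in wild-type myotubes, against 8.15, 8.00 and 8.19 in wild-type myoblasts. All 3 MuSK-null myotube arrays lay below the wild-type myotube arrays and above all untreated myoblast arrays for this gene.

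All 4 GTPases rose in wild-type myotubes: Mx2, a dynamin-like antiviral GTPase, by 2.45, Irgm1, an autophagy-linked immunity GTPase, by 1.63, and the guanylate-binding proteins Gbp7 and Gbp3 by 1.22 and 1.12. The ADP-ribosylation enzymes rose in 3 of 3 cases, with Dtx3l at 1.72, Parp14 at 1.42 and Parp9 at 1.18. The annotated spans of Dtx3l and Parp9, which act as a complex, overlap by 558 bases, so a share of common signal cannot be told apart.

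In antigen processing, the immunoproteasome subunits Psmb8 and Psmb9 rose in wild-type myotubes by 0.97 and 0.47. Tap1, a subunit of the peptide transporter of the endoplasmic reticulum, rose by 0.44. Psmb8 had 8.73, 8.71 and 8.62 in wild-type myotubes, against 7.62, 7.76 and 7.76 in wild-type myoblasts. The partner Tap2 had 9.32, 9.23 and 9.18 in the myotubes, against 9.52, 10.00 and 9.71 in the myoblasts, and fell by 0.50 on the log2 scale (adjusted p = 0.000391). The genes of this transporter thus passed the test in opposite directions, although Psmb9, Tap1, Psmb8 and Tap2 follow each other on chromosome 17.

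The 8 other effectors all rose in wild-type myotubes. Rtp4, a Golgi chaperone with antiviral activity, had 10.61, 10.69 and 10.40 in wild-type myotubes, against 7.54, 7.56 and 7.67 in wild-type myoblasts, a rise of 2.97 (SE 0.11, adjusted p = 1.71e-16). Samd9l, an antiviral and growth-restraining factor, rose by 1.82, and Xaf1, a partner of the apoptosis inhibitor XIAP, by 1.73. Ifi27, a mitochondrial protein, rose by 1.50, and Rsad2 (viperin), which makes a chain-terminating nucleotide, by 1.35. Bst2 (tetherin), which holds budding virus at the membrane, rose by 1.24, the mitochondrial nucleotide kinase gene Cmpk2 by 0.71, and Ifi35 by 0.37.

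**Figure D2:**
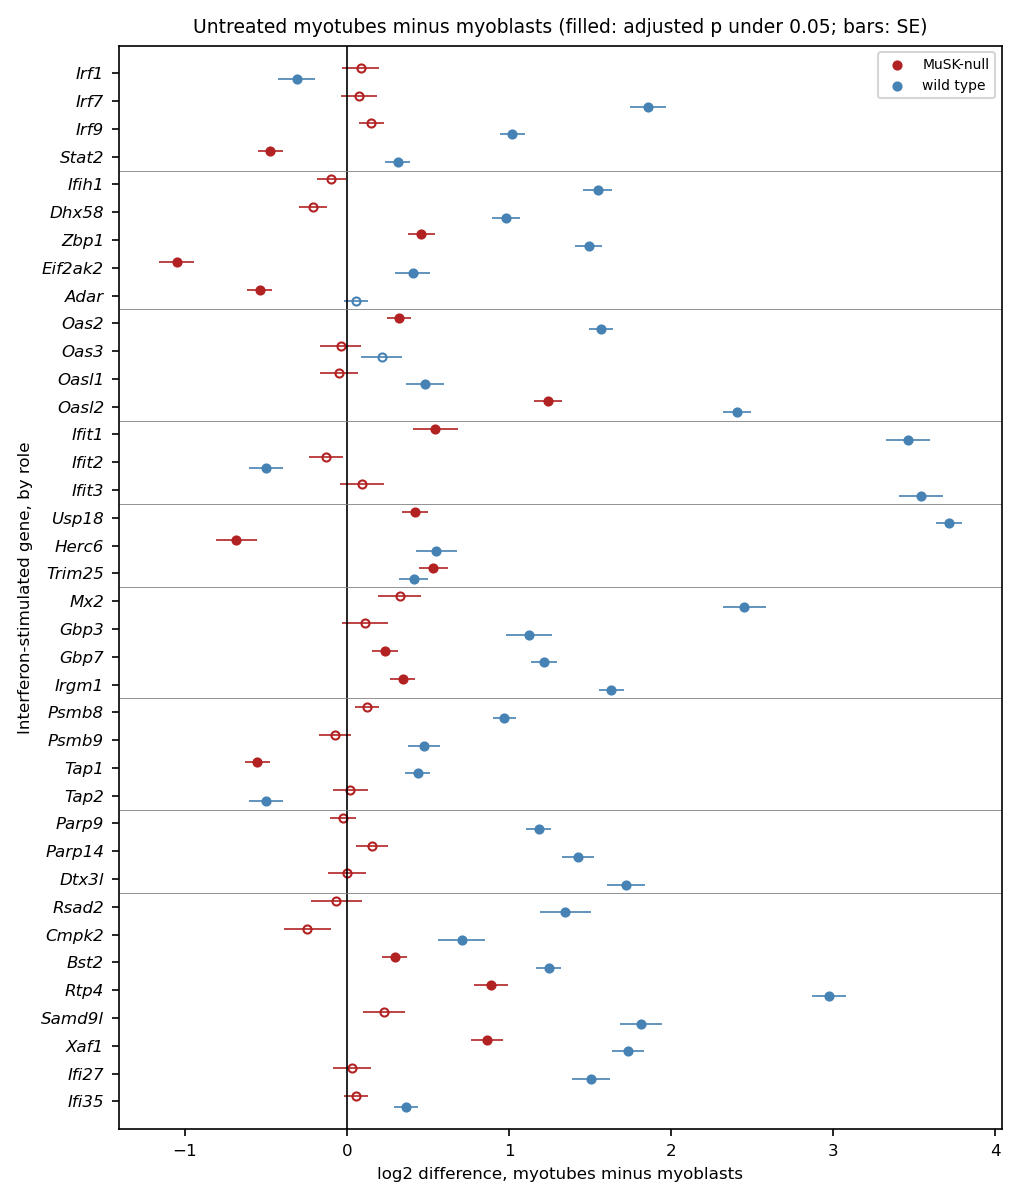
Log2 difference, untreated myotubes minus untreated myoblasts (x axis), for the 38 measured genes (rows, by role), with MuSK-null cells in red above wild-type cells in blue. Bars are standard errors and filled points passed an adjusted p under 0.05; the red points end at 1.24 while the blue points reach 3.71.

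The difference between the lines' stage changes was itself tested as an interaction. It was lower in MuSK-null cells for 33 of 38 members and higher for 1, against 14.1% and 14.9% of all genes, with a median of -1.10 over the members and 0.04 over all genes. The 4 largest differences were Ifit3 at -3.45 (SE 0.19, adjusted p = 1.8e-12), Usp18 at -3.29 (SE 0.11, adjusted p = 8.01e-16), Ifit1 at -2.91 (SE 0.19, adjusted p = 4.56e-11) and Mx2 at -2.13 (SE 0.19, adjusted p = 5.28e-09). For Mx2 the change was 0.33 in MuSK-null cells, from dim signals, and 2.45 in wild-type cells. Psmb8 differed by -0.85 and Stat2 by -0.79. Tap2 was the single member with a higher change in MuSK-null cells, 0.02 there against -0.50 in wild type, a difference of 0.52 (adjusted p = 0.0103). Irf1, Ifit2, Trim25 and Oas3 did not pass the interaction test, with differences of 0.39, 0.37, 0.12 and -0.25. The stage step in muscle genes was also unlike between the lines. The mean of 10 muscle markers was 9.95 to 10.01 in untreated MuSK-null myoblasts and 12.89 to 12.90 in untreated MuSK-null myotubes. In untreated wild-type cells it was 11.90 to 11.94 in myoblasts and 13.02 to 13.07 in myotubes. The part of this in the interaction was not tested.

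Between the lines at the myotube stage, nearly the whole set was lower in the MuSK-null line. In untreated myotubes 36 of 38 members were lower in MuSK-null cells and 1 was higher, against 18.0% and 19.4% of all genes. In 25 members the MuSK-null signal was at least 2-fold lower, against 2.74% of genes, and the median difference was -1.41 over the members and 0.04 over all genes. With BMP4 the counts were again 36 lower and 1 higher, against 18.8% and 17.5% of genes, with 23 members at least 2-fold lower (2.65% of genes) and a median of -1.37. Oas3 was the member without a call in both, with differences of -0.28 with BMP4 and -0.15 untreated.

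The genes that led the wild-type stage change also led here. Usp18 differed by -3.53 (SE 0.08, adjusted p = 2.02e-19) in untreated myotubes, 11.5-fold higher in wild type. With BMP4 its signals were 7.84, 7.91 and 7.82 in MuSK-null myotubes, against 11.02, 10.98 and 10.88 in wild-type myotubes, a difference of -3.10 (SE 0.08, adjusted p = 1.79e-18). Ifit1 differed by -3.05 with BMP4 and -3.42 untreated. For Ifit3, with 7.09, 7.18 and 7.16 in untreated MuSK-null myotubes against the wild-type values above, the difference was -3.31 (SE 0.13, adjusted p = 3.49e-15), and with BMP4 it was -2.86. Rtp4 differed by -2.69 with BMP4 and -2.94 untreated. No MuSK-null myotube array reached the lowest wild-type myotube array for any of these 4 genes.

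**Figure D3:**
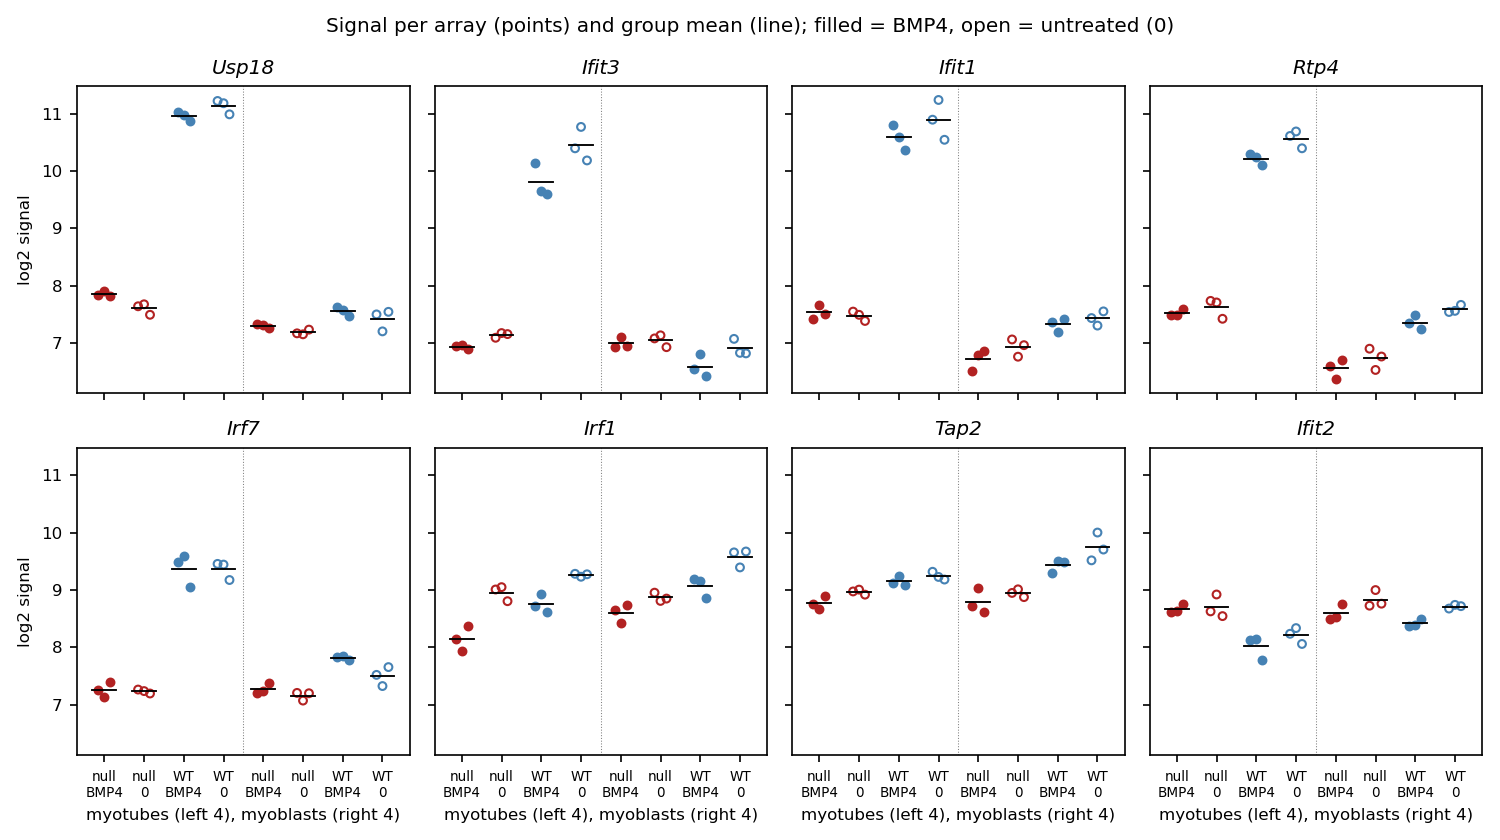
Log2 signal on each array (points) with the group mean (line) for 8 interferon-stimulated genes; myotubes are left of the dotted line and myoblasts right, MuSK-null groups (null, red) stand left of wild type (WT, blue), and filled points are BMP4-treated. Usp18, Ifit3, Ifit1, Rtp4 and Irf7 are high in wild-type myotubes alone, Irf1 and Tap2 are highest in untreated wild-type myoblasts, and Ifit2 is lowest in wild-type myotubes.

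The lower signal in MuSK-null myotubes reached every functional group. All 4 transcription factors were lower in untreated MuSK-null myotubes, with Irf7 at -2.12, Stat2 at -1.04 (adjusted p = 1.66e-10), Irf9 at -0.96 and Irf1 at -0.31. Irf1 had 9.01, 9.05 and 8.81 in untreated MuSK-null myotubes, just below the wild-type arrays, and its call (adjusted p = 0.0364) was lost in 6 of 17 alternatives. The 5 RNA sensors and RNA-activated enzymes were all lower, between -1.97 for Dhx58 and -0.22 for Adar, and the ADP-ribosylation enzymes lay between -1.97 for Dtx3l and -1.45 for Parp9. The GTPases ran from -2.30 for Mx2 to -0.56 for Irgm1, and the other effectors from -2.94 for Rtp4 to -0.55 for Ifi35. Psmb8 had 7.10, 7.23 and 7.13 in untreated MuSK-null myotubes, a difference of -1.53 (adjusted p = 4.81e-14). Tap1 differed by -1.41, Psmb9 by -1.20 and Tap2 by -0.28.

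Ifit2 was the exception in direction. It had 8.63, 8.92 and 8.55 in untreated MuSK-null myotubes, against 8.24, 8.34 and 8.06 in untreated wild-type myotubes, a difference of 0.49 (SE 0.11, adjusted p = 0.000746). With BMP4 it had 8.63, 8.63 and 8.76 in MuSK-null myotubes, against 8.14, 8.15 and 7.79 in wild-type myotubes, a difference of 0.65 (adjusted p = 3.04e-05). The groups did not overlap in either comparison.

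At the myoblast stage, where the medium of both lines held interferon-γ, the difference was smaller and more mixed. Of the 38 members 20 were lower and 3 higher in untreated MuSK-null myoblasts, against 16.0% and 15.3% of all genes, and none differed 2-fold (2.24% of genes were 2-fold lower and 1.53% 2-fold higher). The median difference was -0.24, against -0.01 over all genes. With BMP4 17 were lower and 4 higher, against 15.6% and 14.1% of genes.

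The members higher in MuSK-null myoblasts were Samd9l, Irgm1 and Adar. Samd9l had 7.36, 7.49 and 7.67 in untreated MuSK-null myoblasts, against 6.76, 6.18 and 6.60 in wild-type myoblasts, a difference of 0.99 (SE 0.13, adjusted p = 1.52e-06). Irgm1 had 9.90, 9.86 and 9.86 in MuSK-null myoblasts, against 9.17, 9.10 and 9.16 in wild-type myoblasts, a difference of 0.73 (SE 0.08, adjusted p = 6.9e-08). Both genes were lower in MuSK-null cells at the myotube stage, with differences of -0.60 for Samd9l and -0.56 for Irgm1. Adar differed by 0.37 in myoblasts and by -0.22 in myotubes.

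The lower members were led by Trim25, with 9.16, 8.98 and 9.07 in untreated MuSK-null myoblasts, against 10.00, 9.87 and 10.06 in wild-type myoblasts, a difference of -0.91 (SE 0.09, adjusted p = 1.74e-08). Rtp4 differed by -0.86, Tap2 by -0.80, Dhx58 by -0.78 and Irf1 by -0.70. Antigen processing was lower as a group, with 4 of 4 members called in untreated and in BMP4-treated myoblasts. Psmb8 had 6.87, 7.12 and 7.09 in untreated MuSK-null myoblasts, against 7.62, 7.76 and 7.76 in wild-type myoblasts, a difference of -0.69 (adjusted p = 6.2e-08). Stat2 differed by -0.00 in BMP4-treated myoblasts (adjusted p = 0.986) and by -0.25 in untreated ones (adjusted p = 0.0148), a call lost in 3 of 18 alternatives. The Ifit3 difference in BMP4-treated myoblasts, 0.41 (adjusted p = 0.024), lost its call in 5 of 17 alternatives.

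**Figure D4:**
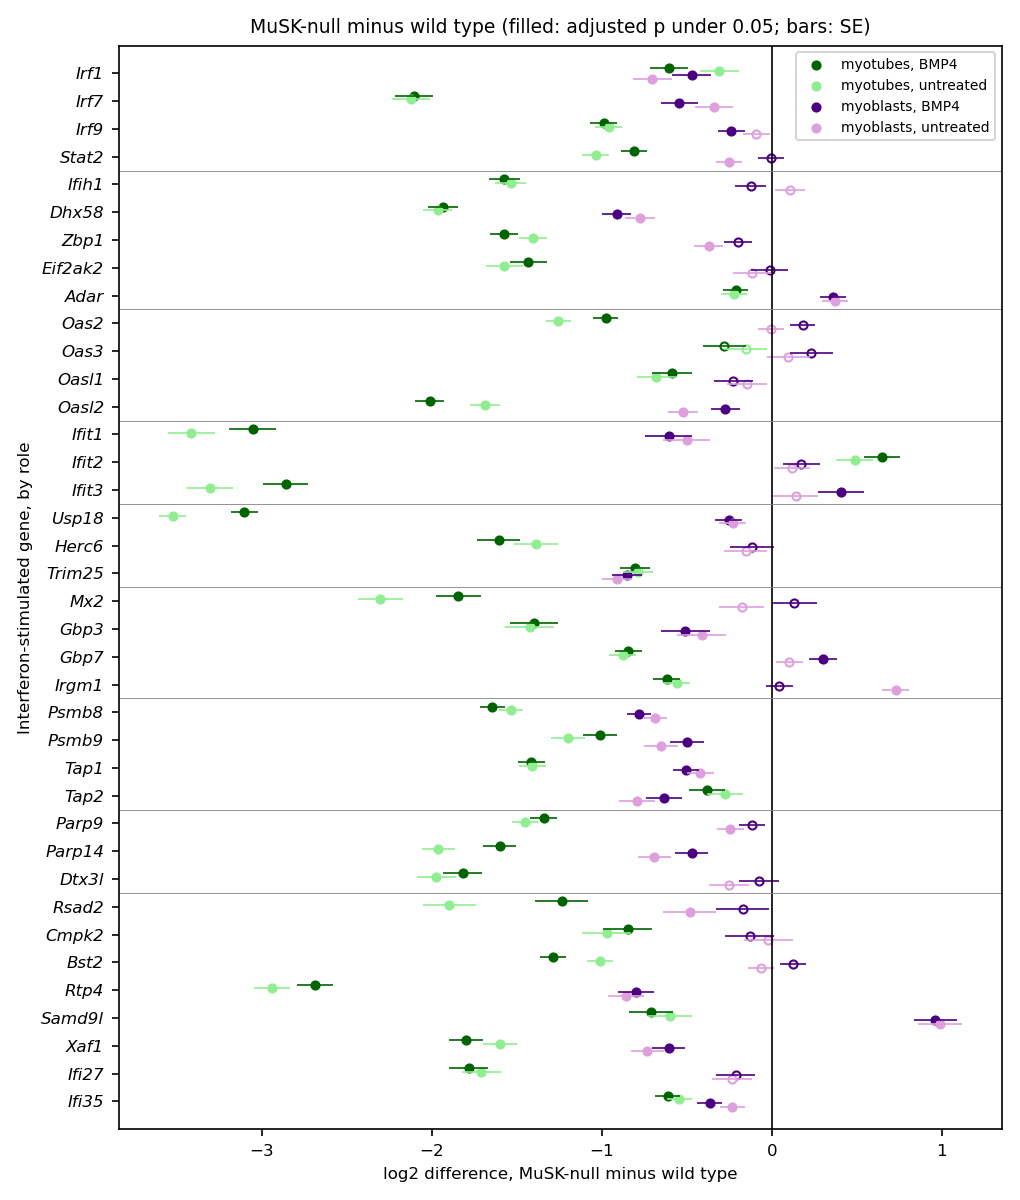
Log2 difference between genotypes (x axis, MuSK-null minus wild type) for the 38 measured genes (rows, by role) in BMP4-treated and untreated myotubes (green) and myoblasts (purple). Bars are standard errors and filled points passed an adjusted p under 0.05; green points reach -3.53, while purple points lie between -0.91 and 0.99.

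Between BMP4-treated and untreated cells a minority of the set fell. In size, the median changes with BMP4 in myotubes were smaller than those of the wild-type stage change and of the genotype difference in myotubes. They were larger than the median stage change of MuSK-null cells and near the median genotype difference in untreated myoblasts. Irf1 moved more with BMP4 in both lines of myotubes than with stage in either line. In MuSK-null myotubes 9 of 38 members fell and 1, Usp18, rose near the threshold, against 5.90% and 5.36% of all genes, with a median change of -0.19, against -0.01 over all genes. In wild-type myotubes 12 fell and 0 rose, against 4.37% and 4.40% of genes, with a median of -0.22, against 0.02. With single arrays left out, the number called ran from 6 to 8 instead of 10 in MuSK-null myotubes, with 6 without replicate 3 of the treated group, and from 9 to 15 instead of 12 in wild-type myotubes.

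In MuSK-null myotubes Irf1 fell most, with 8.15, 7.95 and 8.37 after BMP4, against 9.01, 9.05 and 8.81 untreated, a change of -0.80 (SE 0.11, adjusted p = 1.88e-05). It also fell in wild-type myotubes, with 8.72, 8.93 and 8.63 after BMP4, against 9.28, 9.23 and 9.27 untreated, a change of -0.50 (adjusted p = 0.00443). The treated and untreated arrays did not overlap in either line. On the second, dimmer Irf1 row, which was not used in the test, they overlapped in both lines. In MuSK-null myotubes that row had 7.48, 7.52 and 7.56 after BMP4, against 7.58, 7.44 and 7.58 untreated. Herc6 fell by 0.60, Xaf1 by 0.48 and Oasl2 by 0.47 on the log2 scale in MuSK-null myotubes. Psmb8 fell by 0.27 there (adjusted p = 0.0142), a call lost in 4 of 17 alternatives. The smaller falls were those of Parp9 (-0.42), Ifih1 (-0.41), Zbp1 (-0.28) and Gbp7 (-0.27).

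In wild-type myotubes the largest fall was that of Rsad2, with 6.97, 6.53 and 6.98 after BMP4, against 7.48, 8.17 and 7.28 untreated, a change of -0.82 (SE 0.16, adjusted p = 0.000922). Mx2 had 7.61, 7.20 and 7.09 after BMP4, against 7.94, 8.22 and 7.84 untreated, a change of -0.70 (SE 0.13, adjusted p = 0.000762). Ifit3, with 10.15, 9.66 and 9.60 after BMP4, changed by -0.65 (adjusted p = 0.00206). In each of these genes the treated arrays lay below the untreated ones, yet stayed above all MuSK-null myotube arrays. The 3 ADP-ribosylation enzymes fell together, Parp14 by 0.55, Parp9 by 0.52 and Dtx3l by 0.48 on the log2 scale. Oas2 changed by -0.43, Ifih1 by -0.37, Rtp4 by -0.35, Stat2 by -0.31 and Gbp7 by -0.30. The calls of Rsad2, Ifit3, Irf1 and Stat2 were each lost in 1 of 17 alternatives, for Stat2 without replicate 3 of the treated wild-type myotubes (adjusted p = 0.0755). Irf7 and Usp18 did not pass the test there, with changes of 0.01 and -0.17.

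Members that fell in both lines of myotubes were Gbp7, Ifih1, Irf1 and Parp9, which is 44.4% of the 9 falls in MuSK-null cells and 33.3% of the 12 falls in wild-type cells. The difference between the lines' responses was tested directly, and 1 of 38 members passed, against 1.50% of genes higher and 1.71% lower. That member was Usp18, which rose by 0.25 in MuSK-null myotubes (adjusted p = 0.0469, a call lost in 6 of 17 alternatives, 5 of them single arrays left out) and changed by -0.17 in wild-type myotubes (adjusted p = 0.253). The difference of 0.42 (SE 0.11, adjusted p = 0.0437) lost its call in 10 of 23 alternatives, among them leaving out any 1 of 9 single arrays. For Irf1 the difference was -0.30 (adjusted p = 0.435).

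Fewer members changed between treated and untreated myoblasts. In MuSK-null myoblasts 4 fell and 0 rose, against 4.52% and 3.89% of all genes, with a median of -0.04, against 0.02. In wild-type myoblasts 6 fell and 1 rose, against 5.76% and 5.21% of genes, with a median of -0.17, against -0.00. The count of 4 dropped to 1 without 4 myoblast arrays whose deviations correlate, 1 in each myoblast group, and to 2 without replicate 1 of the untreated or replicate 2 of the treated MuSK-null myoblasts. Serum deprivation and BMP4 cannot be told apart in these comparisons unless the untreated myoblasts were deprived too.

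Ifih1 was lower after BMP4 in every one of the 4 comparisons, and Parp9 was too, although in MuSK-null myoblasts its call was lost in 2 of 18 alternatives (adjusted p up to 0.0693). Ifih1 had 6.91, 6.93 and 7.00 in BMP4-treated MuSK-null myoblasts, against 7.58, 7.66 and 7.56 in untreated ones, a change of -0.66 (SE 0.09, adjusted p = 1.43e-05). In wild-type myoblasts it had 7.19, 6.92 and 7.11 after BMP4, against 7.63, 7.44 and 7.42 untreated, a change of -0.42 (adjusted p = 0.00185). Parp9 changed by -0.32 in MuSK-null and by -0.45 in wild-type myoblasts. The other falls in MuSK-null myoblasts were those of Dhx58 and Irgm1, both by 0.30 on the log2 scale. The call of Dhx58 was lost in 7 of 18 alternatives (adjusted p up to 0.256), among them leaving out any 1 of 5 single arrays, and that of Irgm1 in 6 of 18 (up to 0.141). In wild-type myoblasts Irf1 (-0.50), Dtx3l (-0.50), Trim25 (-0.30) and Oasl2 (-0.29) fell as well.

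The response of Irgm1 differed between the lines. It had 9.67, 9.41 and 9.63 in BMP4-treated MuSK-null myoblasts, against 9.90, 9.86 and 9.86 in untreated ones, a change of -0.30 (adjusted p = 0.0117) whose call depended on the alternatives above. In wild-type myoblasts it had 9.58, 9.60 and 9.39 after BMP4, against 9.17, 9.10 and 9.16 untreated, a rise of 0.38 (adjusted p = 0.00125). The difference of responses was -0.68 (SE 0.11, adjusted p = 0.000546), the single call among the 38 members, against 1.22% of genes lower and 1.17% higher. The genotype difference of Irgm1 was 0.04 in treated myoblasts (adjusted p = 0.738) and 0.73 in untreated ones.

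**Figure D5:**
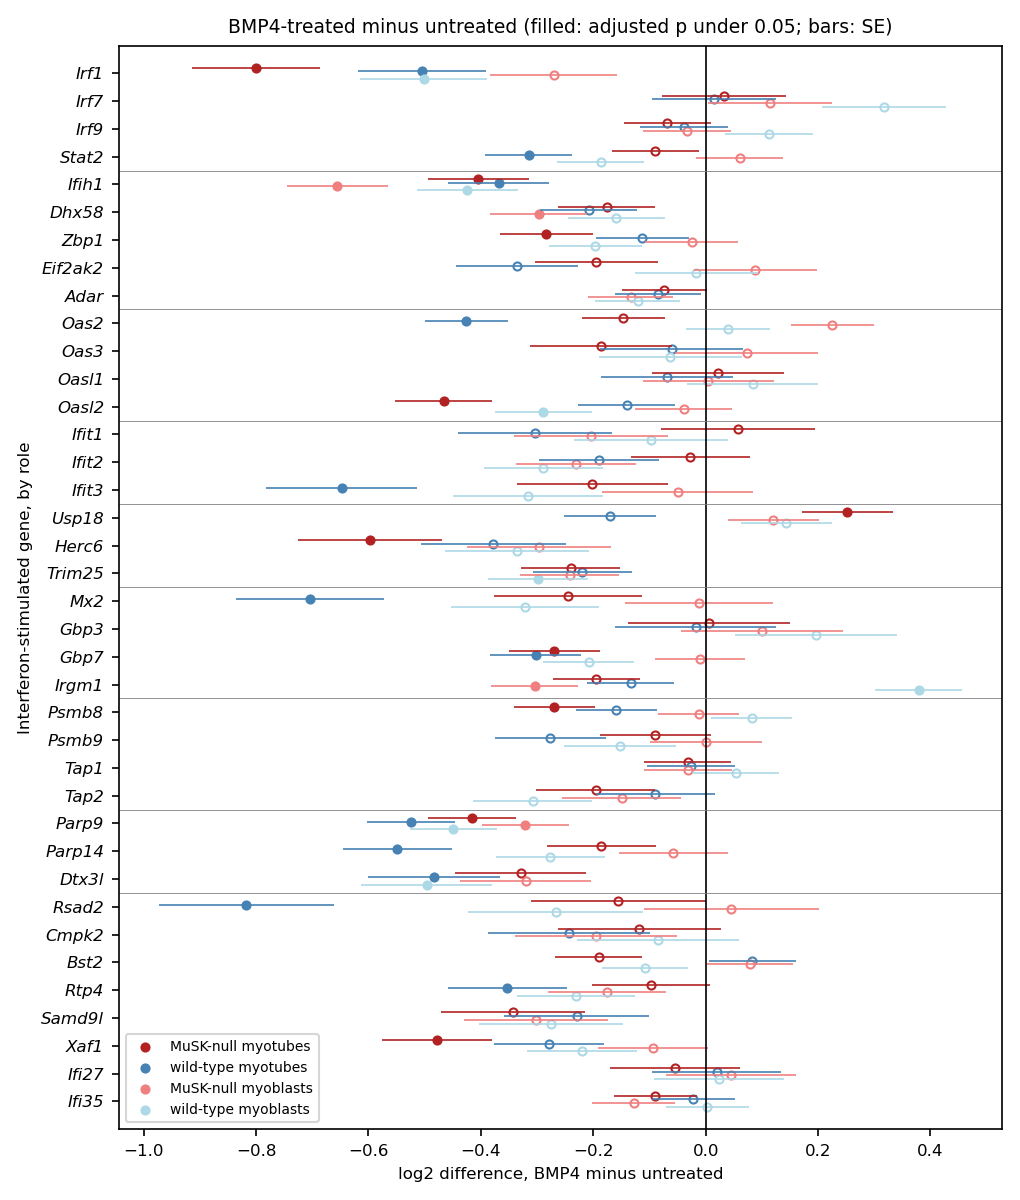
Log2 change with BMP4 (x axis, BMP4 minus untreated) for the 38 measured genes (rows, by role) in MuSK-null (red) and wild-type (blue) myotubes, in dark colours, and myoblasts, in light colours. Bars are standard errors and filled points passed an adjusted p under 0.05; all changes lie between -0.82 and 0.38, most of them below 0.

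Other genes of the pathway were taken from lists outside the 38 members. Of 29 other interferon-induced genes 4 rose and 8 fell in MuSK-null myotubes relative to MuSK-null myoblasts, while 22 rose and 1 fell in wild-type cells. The MuSK-null shares, 13.8% higher and 27.6% lower, lay near those of all genes (18.2% and 23.4%), and the wild-type shares were 75.9% and 3.45%, against 20.3% and 24.7% of all genes. In untreated myotubes 20 of the 29 were lower in MuSK-null cells and 2 were higher (69.0% and 6.90%, against 18.0% and 19.4% of all genes), with a median difference of -0.65. Ddx60, an antiviral helicase, rose by 3.86 and Sp100, a nuclear body protein, by 3.52 with the wild-type stage change, and both stayed below 6 log2 units in all other untreated groups. Gbp4 and Gbp9, further guanylate-binding proteins, differed between the lines already in myoblasts. Gbp4 had 6.22, 6.32 and 6.23 in untreated MuSK-null myoblasts, against 8.91, 8.58 and 8.84 in wild-type myoblasts, a difference of -2.52 (SE 0.13, adjusted p = 3.76e-13). In untreated myotubes the difference was -4.66 for Gbp4 and -3.86 for Gbp9.

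The receptors and signalling genes upstream moved both ways. A list of 17 genes held interferon receptors and JAK-STAT signalling genes, and also Irf2, Irf3, Irf8, Ifnb1 and Ifng. With the wild-type stage change 6 of the 17 rose and 4 fell, with a median of -0.04. In untreated myotubes 5 were higher and 3 lower in MuSK-null than in wild-type cells. These shares were 35.3% and 23.5% for the stage change, against 20.3% and 24.7% of all genes, and 29.4% and 17.6% between the lines, against 19.4% and 18.0%. Ifngr2, a chain of the interferon-γ receptor, was higher in MuSK-null cells, by 0.74 in untreated myotubes and 1.20 in untreated myoblasts. The other chain, Ifngr1, was higher by 0.44 in MuSK-null myotubes and differed by 0.04 in myoblasts (adjusted p = 0.756). Socs1, a feedback inhibitor of JAK kinases, was higher by 0.22 in untreated MuSK-null myotubes and fell by 0.31 with the wild-type stage change. Signals of the interferon genes were low in all groups: Ifnb1 lay between 4.71 and 5.49, and Ifng between 6.54 and 7.25, and neither passed the test in the stage and genotype comparisons. H2-K1 has no row of its own and was not used here.

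Of 13 genes of MHC and antigen presentation 4 rose and 1 fell with the wild-type stage change, and 5 were lower and 1 higher in untreated MuSK-null myotubes. The rises were 30.8% of the list, against 20.3% of all genes, and the lower members 38.5%, against 18.0%, a gap of few genes in a list of this size. B2m, the light chain of class I molecules, differed there by -0.79 (adjusted p = 6.15e-09) and Tapbp, the chaperone of peptide loading, by -0.94. Of 9 nucleic acid sensors and adaptors 3 rose and 2 fell with the wild-type stage change, with Tlr3, an endosomal RNA sensor, at 1.48 and Ddx58 (RIG-I) at 1.27. Ddx58 was also counted among the other interferon-induced genes above, so these lists share it. The stage counts were 33.3% and 22.2% of the list, against 20.3% and 24.7% of all genes. In untreated myotubes 5 of the 9 were lower in MuSK-null cells and 0 were higher (18.0% and 19.4% of all genes), with Ddx58 at -1.69 and Tlr3 at -1.64.

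Markers of other cell types were read beside the genotype difference of the set in untreated myotubes. The mean of 9 leukocyte markers ran from 6.17 to 6.31 in MuSK-null and from 6.36 to 6.44 in wild-type myotubes, and 4 of the 9 lay below the 20th percentile of gene means in both. Ptprc, the common leukocyte antigen, had 5.83, 5.72 and 6.08 in MuSK-null, against 5.82, 5.63 and 5.89 in wild-type myotubes. Cd68, a macrophage lysosome marker, had 7.17, 7.31 and 7.16 in MuSK-null, against 8.21, 8.10 and 8.05 in wild-type myotubes, and of the 9 markers 3 were lower in MuSK-null cells and 1 was higher, against 18.0% and 19.4% of all genes. The mean of 6 fibroblast markers was 10.11 to 10.27 in MuSK-null and 8.82 to 8.99 in wild-type myotubes, and 5 of the 6 were higher in MuSK-null cells while 1 was lower. Lum, a matrix proteoglycan, averaged 8.23 in MuSK-null and 4.64 in wild-type myotubes, while Thy1, a surface glycoprotein, averaged 7.07 in MuSK-null and 8.19 in wild-type myotubes. The mean of 10 muscle markers was 12.89 to 12.90 in MuSK-null and 13.02 to 13.07 in wild-type myotubes, with 7 of the 10 lower and 1 higher in MuSK-null cells, and the means of 5 endothelial markers overlapped. In untreated myoblasts the muscle markers were 9.95 to 10.01 in MuSK-null and 11.90 to 11.94 in wild-type cells. The part of these differences in the results for the interferon-stimulated genes was not tested.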

How the data were processed

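RNA of 24 cultures was hybridised to gene arrays with probes along the whole transcript, each culture to an array of its own. The deposited values are log2 signals per probe set, a scale read from their range (2.50 to 15.03). Per the submitters' processing notes Affymetrix Expression Console and Partek were used; the background correction, probe summary and scaling were not given in the sources used here. Signals carry no counts, so the number of arrays limits the precision.

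Of 35556 rows, 21789 list 1 gene, 1621 several and 12146 none; the last 2 kinds were left out. One row per gene, the one with the highest mean, left 19938 genes. Gene IDs of 21698 rows matched RefSeq (GRCm38.p6).

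limma 3.58.1 in R 4.3.3 fitted 1 mean per group to all 24 arrays (16 residual degrees of freedom). All p-values are limma's, adjusted by Benjamini-Hochberg over all genes, with a threshold of 0.05 for a call. Changes and differences are in log2 units, with standard errors (SE). The fit was tested on simulated data. No chance test was built for the list, which is described by counts and medians beside those of all genes. Members and lists were chosen with earlier results of these data known. Values on each array are given for up to 4 called members with the largest rise and up to 4 with the largest fall per comparison, and for Irf1, Stat2 and Psmb8. Ifih1, Parp9 and neighbours of such members are named by role, and of each list of other pathway genes up to 3 called genes, Ifngr1, Ifngr2, Socs1 and Musk; Ifnb1, Ifng, Ptprc, Cd68, Lum, Thy1 and B2m were named after their values were seen.

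Replicate numbers were checked for pairing. Same-numbered arrays deviated together, with every correlation above 0.1, between untreated MuSK-null and wild-type myoblasts (0.22 to 0.42) and between BMP4-treated and untreated MuSK-null myoblasts (0.12 to 0.46), and in no other comparison. Alternatives were the compared groups alone, trend and robust estimation, no dim genes, quantile normalization, median centring, means over rows, replicate blocks, a correlated array set as a block or left out, and each array left out.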

Additional observations from a re-analysis of the deposited data

Results flagged for a closer look

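A difference between the lines, tested as an interaction of genotype with stage or with BMP4, passed the threshold for these named members. The stage change of untreated cells differed, MuSK-null minus wild type, by -3.45 for Ifit3 and by -3.29 for Usp18. It differed by -2.91 for Ifit1, -2.13 for Mx2, -0.85 for Psmb8 and -0.79 for Stat2. For Stat2 the stage change was -0.47 in MuSK-null and 0.31 in wild-type cells, so the signs were opposite. Tap2 differed by 0.52, with a change of 0.02 in MuSK-null and -0.50 in wild-type cells.

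The myoblast response to BMP4 differed by -0.68 for Irgm1, with a fall in MuSK-null cells whose call was lost in 6 of 18 alternatives and a rise in wild-type cells. The myotube response differed by 0.42 for Usp18, and this call was lost in 10 of 23 alternatives.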

How the results depend on the processing

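The counts of members called kept within 1.5 times their value in 10 of the 13 comparisons under all alternatives run. The 3 exceptions concern BMP4. In MuSK-null myoblasts the count of 4 was 1 without the array set picked from rows without a gene, 1 without the correlated array set and 7 with that set as a block, a choice made after seeing the data; the 1 left was Ifih1. For the difference of myotube responses the count of 1 was 0 with the compared groups alone and 2 without the correlated set. With single arrays left out the ranges were 2 to 5 for BMP4 in MuSK-null myoblasts, 6 to 8 against 10 for BMP4 in MuSK-null myotubes, and 0 to 2 for the difference of myotube responses. The replicate block gave 4 members for BMP4 in MuSK-null myoblasts (3 with the compared groups alone) and 22 of 23 for untreated myoblasts between the lines. Same-numbered arrays deviated together in these comparisons, which does not show that they were paired. The block moved no other count by over 1.5 times. Each of 100 single-member results, 83 of them called, was refitted under the alternatives. Of these refits 1742 kept the result, 61 lost a call, 8 gained one and 0 changed sign with a call in either fit. A change of sign without a call in either fit was counted as kept. The causes were not tested.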
